A study of Mus musculus with 6 samples.

Results

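The genes described here make and ship secreted proteins through the endoplasmic reticulum (ER): 35 genes chosen by name, of 48897 in the deposited table. They comprised 8 stress sensors and transcription factors, 7 general folding enzymes, 6 genes for collagen folding, 3 quality control genes that ER stress induces, 2 subunits of the translocon and 9 genes of the COPII vesicle coat. All 35 were found under their symbols, and all passed the filter on low counts. The rule that finds them uses their symbols and no measured value, but the set was proposed with earlier results of these data known.

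RNA came from liver sinusoidal endothelial cells, the fenestrated lining of the liver capillaries, of C57BL/6 mice aged 7 to 8 weeks. The mice had undergone partial hepatectomy (PHx, removal of part of the liver) or a sham operation, and cells were taken on day 14. Each group held 3 libraries, numbered 1, 3 and 4. Cells were selected with beads against CD146, a surface protein that pericytes and smooth muscle also carry, so the selection need not exclude these cells. No mutation or drug is named in the labels, and neither is the fraction of liver removed. The labels do not say whether libraries came from separate animals or from pools, so p-values measure the spread between these libraries, which may be technical.

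Secreted and membrane proteins enter the ER through the Sec61 channel, fold there with chaperones and disulfide isomerases, and leave in vesicles coated by COPII. Misfolded protein activates the sensors IRE1 (encoded by Ern1), PERK (Eif2ak3) and ATF6, which raise chaperone production through XBP1, ATF4 and cleaved ATF6; together this is the unfolded protein response. Procollagen needs additional helpers, among them HSP47 (Serpinh1), prolyl isomerases and hydroxylases, and in the liver the stellate cell is known as its main producer after injury. Much of the stress response works by cleavage, phosphorylation and RNA splicing, which gene-level counts do not show.

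Xbp1 illustrates that limit, and its regulated segment is shown for that reason. IRE1 removes a short piece from the Xbp1 RNA and so shifts its reading frame. The capitals mark the 26 bases between the 2 cleavage loops, each read as CNGCAGC, which formed the only such pair at that spacing in the GENCODE transcript Xbp1-201. The segment lies in exon 4, at chr11:5524279-5524304 on the plus strand of GRCm38. A count per gene does not tell RNA with this segment from RNA without it.
Xbp1 segment: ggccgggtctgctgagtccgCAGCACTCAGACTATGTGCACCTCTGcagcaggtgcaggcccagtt

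Promoters are shown for a called gene and for members that carry a classical stress element. Windows run from 250 bases before to 50 after the start site and come from RefSeq (GRCm38.p6), which matched 30 of the 35 members. The motifs were searched on both strands, and the share of all 32851 windows that hold each is given in percent. The ER stress element (ERSE, which reads CCAAT, a spacer of any letters, 9 long, and CCACG) was in 0.119% of windows and in those of Calr, Canx and Pdia6. ERSE-II (ATTGG, any letter, CCACG) was in 0.0365% of windows and in that of Herpud1. The unfolded protein response element (UPRE, TGACGTGG) was in 0.676% of windows and in those of Sec23a and Sec24d. Its last 7 letters, GACGTGG, searched after the Serpinh1 window had been read, were in 2.42% of windows and in those of 9 members, Serpinh1 included. Every UPRE match also contains these 7 letters. Capitals mark GACGTGG (on the opposite strand) for Serpinh1 at chr7:99353190-99353489, ERSE (on the opposite strand) for Calr at chr8:84846882-84847181, and ERSE-II for Herpud1 at chr8:94386179-94386478. The windows of Serpinh1 and Calr are written along the minus strand, that of Herpud1 along the plus strand. A match is a description of letters and not of binding.
Serpinh1 promoter: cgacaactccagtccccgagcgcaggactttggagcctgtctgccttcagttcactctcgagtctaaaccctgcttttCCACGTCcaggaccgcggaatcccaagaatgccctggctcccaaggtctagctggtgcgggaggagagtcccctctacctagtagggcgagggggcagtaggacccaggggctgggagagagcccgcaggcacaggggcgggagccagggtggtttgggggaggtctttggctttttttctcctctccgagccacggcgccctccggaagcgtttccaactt
Calr promoter: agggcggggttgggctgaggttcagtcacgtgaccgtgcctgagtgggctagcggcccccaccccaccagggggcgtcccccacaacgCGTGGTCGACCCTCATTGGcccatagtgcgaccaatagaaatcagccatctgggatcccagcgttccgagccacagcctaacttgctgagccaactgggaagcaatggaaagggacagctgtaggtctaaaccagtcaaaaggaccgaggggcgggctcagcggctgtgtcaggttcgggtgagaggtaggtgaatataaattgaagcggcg
Herpud1 promoter: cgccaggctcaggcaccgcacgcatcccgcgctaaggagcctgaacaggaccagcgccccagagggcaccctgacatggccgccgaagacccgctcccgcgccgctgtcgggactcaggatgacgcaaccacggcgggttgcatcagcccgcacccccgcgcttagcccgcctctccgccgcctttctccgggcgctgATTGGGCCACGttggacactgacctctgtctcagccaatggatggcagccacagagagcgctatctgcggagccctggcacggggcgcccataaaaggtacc

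Summed counts per library ranged from 38765116 to 51888481, and the members' counts per library from 387 (Fkbp10) to 55473 (Calr), so counting error was small for all of them. Levels are given as CPM, the usual unit of counts relative to library size, here scaled by the TMM method, and a gene was called where edgeR's quasi-likelihood test, with p adjusted over 19033 genes, gave less than 0.05. The sinusoidal identity of the cells was visible: the summed level of 12 endothelial markers, among them Stab2, Lyve1 and Cdh5, was 32070 to 33949 CPM in sham. It was lower in PHx, at 17600 to 27440 CPM, with 10 of the 12 markers below all sham libraries, against 9.96% of all tested genes. Lyve1 and Mcam overlapped between the groups, at log2 fold changes of 0.16 and 0.11. None of the 12 was called by edgeR, 8 had p under 0.05 before adjustment and 5 were called lower in DESeq2. The shares of all tested genes were 0.862% and 12.7% (either direction) and 0.641%. Over the same libraries 14 stellate and fibroblast markers summed to 1940 to 2592 CPM without and 5697 to 7223 CPM with PHx. They include the collagen chains Col1a1, Col1a2 and Col3a1, and 8 of the 14 were called higher, against 0.846% of all tested genes. Smooth muscle markers (6 genes) ranged from 26.2 to 38.0 and from 57.2 to 80.3 CPM, and mesothelial markers (6 genes) from 55.8 to 68.4 and from 94.4 to 173 CPM. Neutrophil markers (6 genes) stood at 3800 CPM in PHx 4 and at 21.7 to 548 CPM elsewhere. Hepatocyte markers (8 genes) ranged from 998 to 1513 CPM in sham and from 576 to 1147 CPM in PHx. Kupffer markers (6 genes) ranged from 61.1 to 322 and from 30.1 to 88.0 CPM. Cholangiocyte markers (4 genes) ranged from 312 to 545 and from 327 to 616 CPM. In bulk RNA, a change in the number of cells of a type cannot be told apart from a change in RNA per cell.

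Between PHx and sham, the collagen chaperone genes Serpinh1 and Fkbp10 were higher in PHx. These were 2 of 35 members called (5.71%), both higher, against 0.862% of all tested genes called, 0.846% called higher and 0.0158% called lower. No general folding enzyme, translocon subunit, coat gene, quality control gene, stress sensor or transcription factor passed the test in edgeR. At the share called over all tested genes, sets this small would mostly hold no call, so this does not set these roles apart. The median log2 fold change of the 35 members was 0.04, and that of all tested genes 0.03. PHx and sham libraries did not overlap for 5 members (14.3%), against 20.5% of all tested genes. DESeq2 called 3 members higher (Serpinh1, Fkbp10 and the transcription factor gene Creb3l1) and none lower, where it called 4.42% of all genes, 3.78% higher and 0.641% lower. At an unadjusted p under 0.05 edgeR gave 4 members, against 12.7% of all tested genes.

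**Figure D1:**
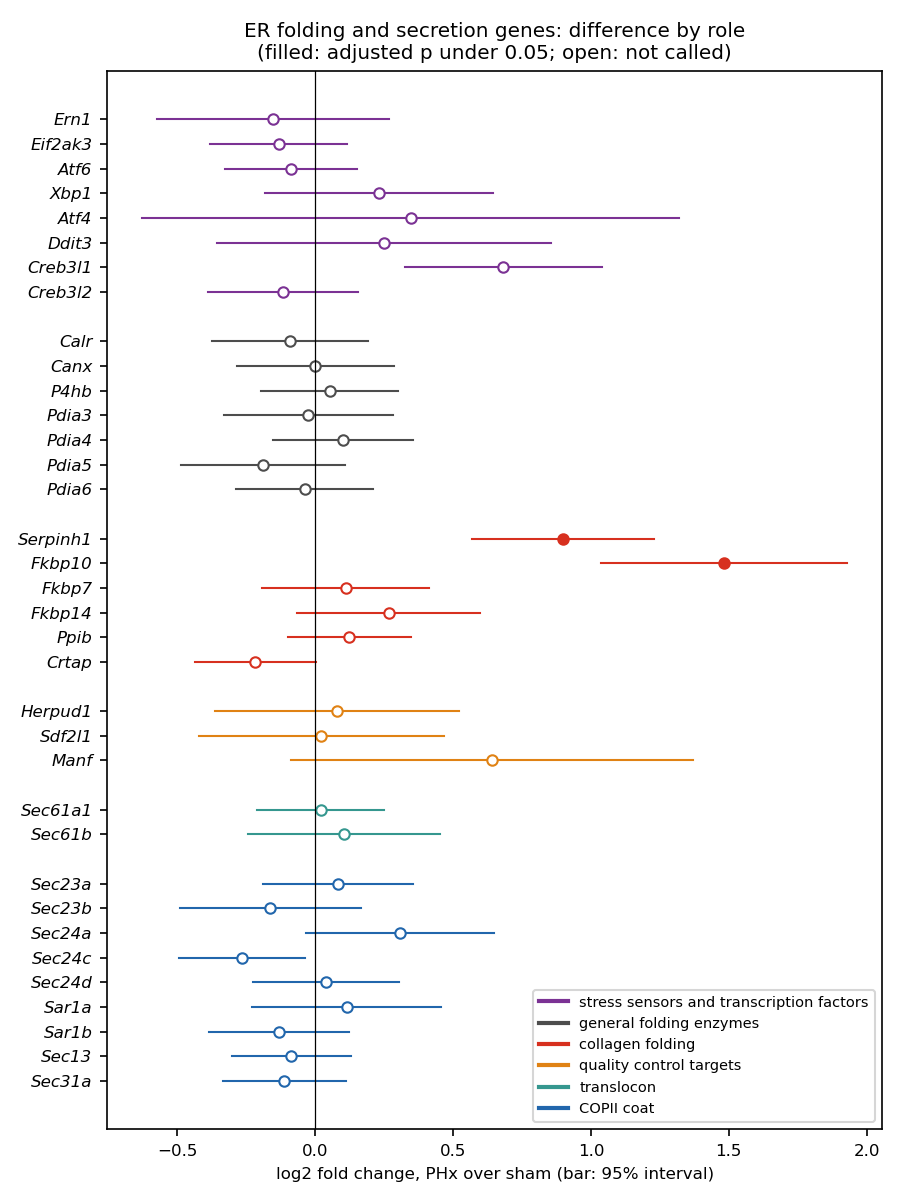
Log2 fold change of each of the 35 genes, PHx over sham, grouped by role, with its 95% interval; filled points are called at an adjusted p under 0.05. Serpinh1 (0.90) and Fkbp10 (1.48) are the filled points, and Creb3l1 (0.68) and Sec24c (-0.26) are the open points whose interval leaves out 0.

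Serpinh1 encodes HSP47, the collagen-specific chaperone that binds the procollagen triple helix (chromosome 7, 99345375 to 99353239, mm10). It stood at 306, 293 and 232 CPM in Sham 1, 3 and 4 and at 561, 508 and 482 CPM in PHx 1, 3 and 4. Every PHx library lay above every sham library, and Sham 4 was the lowest. It rose from 277 ± 39.3 to 517 ± 40.1 CPM (SD, n = 3), 1.86-fold, a log2 fold change of 0.90 ± 0.14 (SE, adjusted p = 0.0406 in edgeR's quasi-likelihood test).

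Fkbp10 encodes FKBP65, a prolyl isomerase and collagen chaperone of the ER (chromosome 11, 100415694 to 100424840). It stood at 11.1, 11.9 and 7.86 CPM in Sham 1, 3 and 4 and at 27.5, 25.7 and 33.1 CPM in PHx 1, 3 and 4. The groups were far apart, with Sham 4 again the lowest library. It rose from 10.3 ± 2.15 to 28.8 ± 3.87 CPM (SD, n = 3), 2.79-fold, a log2 fold change of 1.48 ± 0.19 (SE, adjusted p = 0.0221 in edgeR's quasi-likelihood test). On the opposite strand Nt5c3b overlaps it over 2524 bases of the deposited positions, and the use of strand in counting was not given in the sources used here, so reads in the overlap cannot be told apart. Nt5c3b itself stood at means of 14.8 CPM in both groups.

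Both calls were lost when certain single libraries were left out. Serpinh1 was not called without Sham 1, Sham 3, Sham 4, PHx 1 or PHx 3 (adjusted p = 0.121, 0.234, 0.191, 0.114 and 0.0655 in edgeR), and Fkbp10 was not called without Sham 1, Sham 3, Sham 4 or PHx 1 (adjusted p = 0.101, 0.115, 0.0927 and 0.0629 in edgeR). Log2 fold changes stayed between 0.75 and 0.95 for Serpinh1 and between 1.28 and 1.57 for Fkbp10 in these fits. Without PHx 4, the library with the high neutrophil markers, both were called (adjusted p = 0.0438 and 0.0340 in edgeR). Their PHx libraries are also those with higher stellate and fibroblast markers, whose sum was 3.02 times the sham mean. That sum includes the collagen chains Col1a1, Col1a2 and Col3a1, at log2 fold changes of 3.19, 2.78 and 2.51. The median log2 fold change of the 14 markers was 1.61. The part of stellate cells and fibroblasts in the rise of Serpinh1 and Fkbp10 was not tested.

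The other 4 genes of collagen folding were not called. Crtap encodes the scaffold of the complex that hydroxylates single prolines of collagen together with P3h1 and the isomerase cyclophilin B (Ppib). Crtap stood at 109, 100.4 and 103 CPM in sham and at 84.5, 94.7 and 89.6 CPM in PHx 1, 3 and 4. All its PHx libraries lay below the sham libraries, with a log2 fold change of -0.22 ± 0.09 (SE, adjusted p = 0.397 in edgeR). Ppib stood at 58.8, 52.6 and 54.8 CPM in sham and at 59.1, 58.6 and 63.5 CPM in PHx 1, 3 and 4. The Ppib groups nearly separated, at a log2 fold change of 0.12 with a 95% interval from -0.10 to 0.35.

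The remaining isomerases of the FKBP family in the ER lumen overlapped between groups. Fkbp7, whose product binds the chaperone BiP, stood at 22.4, 22.2 and 23.4 CPM in sham and at 26.4, 26.2 and 20.9 CPM in PHx 1, 3 and 4. Fkbp14, whose product acts on several collagens, stood at 32.3, 28.1 and 32.4 CPM in sham and at 31.5, 43.2 and 36.9 CPM. Their log2 fold changes were 0.11 (95% interval -0.19 to 0.41) and 0.27 (-0.06 to 0.60). Per transcript length, the ratio of Fkbp10 to Fkbp7 was 0.185 ± 0.0432 in sham and 0.488 ± 0.134 in PHx (SD, n = 3, from RPKM), with no overlap between the groups. The ratio of Serpinh1 to Crtap was 1.87 ± 0.250 in sham and 4.06 ± 0.511 in PHx (SD, n = 3, from RPKM). These ratios are descriptions and were chosen after the values were seen.

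**Figure D2:**
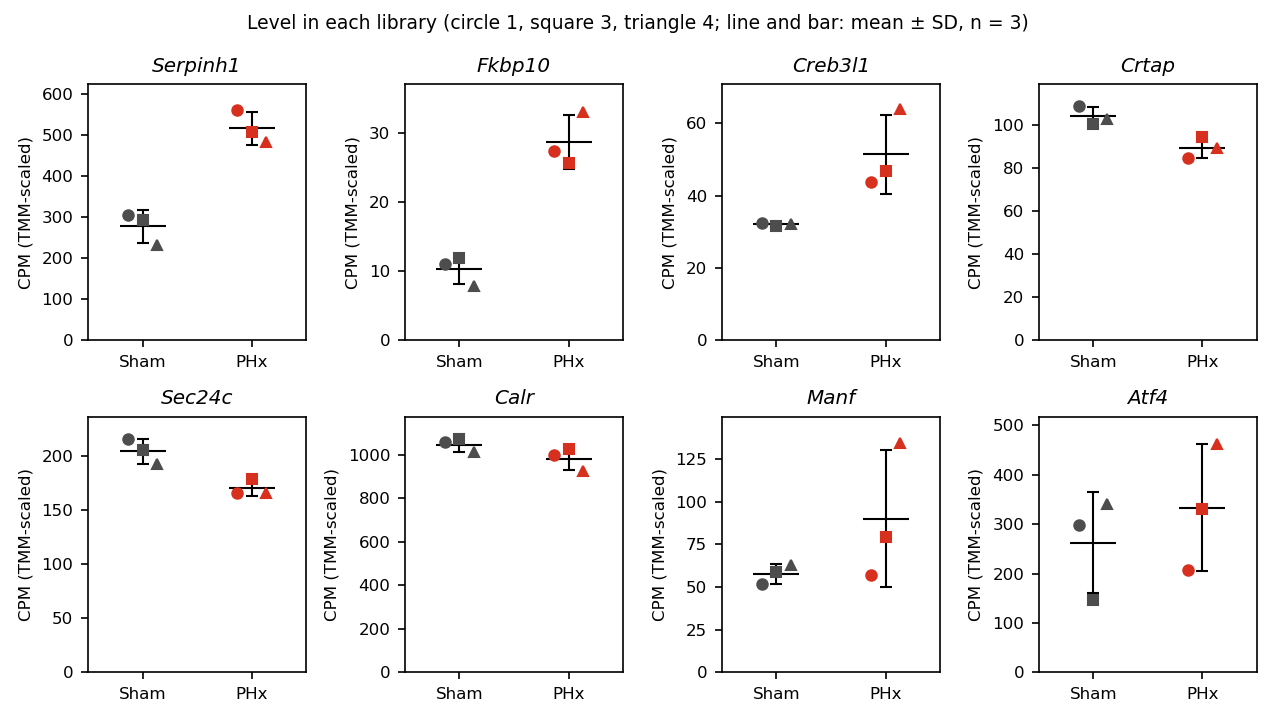
TMM-scaled CPM of 8 genes in each library, with sham in grey and PHx in red, marked by replicate number, and the mean ± SD of each group (n = 3). Serpinh1, Fkbp10 and Creb3l1 separate upwards and Crtap and Sec24c downwards, while Calr, Manf and Atf4 overlap.

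The genes of the stress sensors overlapped between the groups. Ern1, the sensor that splices Xbp1, stood at 46.0, 44.0 and 28.9 CPM in sham and at 36.9, 32.7 and 37.3 CPM in PHx 1, 3 and 4. Eif2ak3, the kinase that slows translation under stress, stood at 81.6, 75.0 and 69.4 CPM in sham and at 62.9, 73.1 and 70.1 CPM in PHx. Atf6, the sensor cut in the Golgi, stood at 105, 105 and 103 CPM in sham and at 87.5, 106 and 100.5 CPM in PHx. No library stood out for Eif2ak3, Sham 4 was the lowest for Ern1 and PHx 1 for Atf6, with log2 fold changes of -0.15, -0.13 and -0.09. Their 95% intervals reached from -0.57 to 0.27, from -0.38 to 0.12 and from -0.33 to 0.15, so each interval includes 0 and changes of either sign.

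The transcription factors below the sensors spread widely between libraries. Xbp1 stood at 156, 163 and 138 CPM in sham and at 161, 145 and 229 CPM in PHx 1, 3 and 4. Atf4, which activates amino acid and redox genes, stood at 299, 147 and 341 CPM in sham and at 208, 329.9 and 463 CPM in PHx. Ddit3, which encodes CHOP, a factor of prolonged stress, stood at 30.6, 19.4 and 27.0 CPM in sham and at 21.04, 31.3 and 39.2 CPM in PHx. For each of them PHx 4 was the highest library, and for Atf4 and Ddit3 Sham 3 was the lowest. Log2 fold changes were 0.23, 0.35 and 0.25 (adjusted p = 0.608, 0.742 and 0.706 in edgeR), and the interval for Atf4 ran from -0.63 to 1.32. Ddit3 overlaps Mars on the opposite strand by 71 bases.

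Creb3l1 and Creb3l2 encode membrane-bound factors that are cut like ATF6 and are known for driving collagen and secretory genes in bone and cartilage. Creb3l1 stood at 32.4, 31.5 and 32.3 CPM in sham and at 43.7, 46.8 and 63.9 CPM in PHx 1, 3 and 4. Sham libraries lay within a narrow band and every PHx library lay above it, PHx 4 furthest. Its log2 fold change was 0.68 ± 0.15 (SE) and it was not called by edgeR (adjusted p = 0.115), while DESeq2 called it (adjusted p = 0.0124). Without PHx 4 the log2 fold change was 0.50 (adjusted p = 0.106 in edgeR).

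Creb3l2 stood at 276, 271 and 286 CPM in sham and at 246, 289.7 and 234 CPM in PHx 1, 3 and 4, with overlapping groups and a log2 fold change of -0.12. The RPKM ratio of Creb3l1 to Creb3l2 was 0.369, 0.364 and 0.354 in sham and 0.557, 0.507 and 0.859 in PHx. In every library Creb3l2 was thus the more abundant of the pair per length. The ratio is a description and was chosen after the values were seen.

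The general folding enzymes include the most abundant members, and none separated the groups. Calr encodes calreticulin, a lectin chaperone for glycoproteins, and Canx its membrane-bound relative calnexin. Calr averaged 1046 ± 32.7 CPM across sham libraries and 981 ± 52.3 CPM after PHx (SD, n = 3), and Canx 469.8 ± 14.9 and 469.8 ± 50.7 CPM. P4hb encodes protein disulfide isomerase, which is also the beta subunit of collagen prolyl 4-hydroxylase, and stood at 445 ± 11.4 and 461 ± 21.8 CPM. PHx 4 was the lowest library for Calr and Canx. The remaining genes encode thiol isomerases. Pdia3, the partner of calreticulin and calnexin, stood at 679, 714 and 769 CPM in sham and at 740.2, 761 and 625 CPM in PHx 1, 3 and 4. Pdia4 stood at 204, 180.0 and 174 CPM and at 213, 194 and 191 CPM, and Pdia6 at 283, 275 and 261 CPM and at 286, 266 and 246 CPM. For Pdia3 and Pdia6 as well PHx 4 lay lowest. Pdia5 stood at 49.9, 45.1 and 40.1 CPM in sham and at 43.9, 38.6 and 35.8 CPM in PHx, where PHx 3 and PHx 4 lay below the sham range. All 7 overlapped between the groups, while 20.5% of all tested genes did not. The log2 fold changes of the 7 ran from -0.19 (Pdia5) to 0.10 (Pdia4), with a median of -0.02. The outermost bounds of their 95% intervals were -0.49 and 0.35, so a rise as large as that of Serpinh1 lies outside every one of these intervals.

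Set against calreticulin in the same library, Serpinh1 gave an RPKM ratio of 0.230, 0.218 and 0.183 in sham and 0.447, 0.394 and 0.416 in PHx 1, 3 and 4. This ratio was chosen after the values were seen, and it restates the rise of Serpinh1 over a gene that changed little. The RPKM order of the 35 genes began with Calr, at 531 ± 18.1 in sham and 512 ± 38.6 in PHx, and Pdia3, at 269 ± 18.9 and 272 ± 33.5 (SD, n = 3). Serpinh1 moved from rank 6 in sham, at 112 ± 15.4 RPKM, to rank 3 in PHx, at 215 ± 25.98 RPKM. In sham it did not differ beyond the spread from its neighbours Pdia6 (127 ± 4.46) and Canx (108 ± 4.69), and in PHx not from Atf4 (194 ± 68.9). Fkbp10 was the lowest of the 35 in sham, at 3.90 ± 0.818 RPKM, just under Sec24a (4.81 ± 0.556), and stood at rank 32 in PHx, at 11.2 ± 1.44 RPKM, level with Fkbp14 (11.2 ± 1.37).

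**Figure D3:**
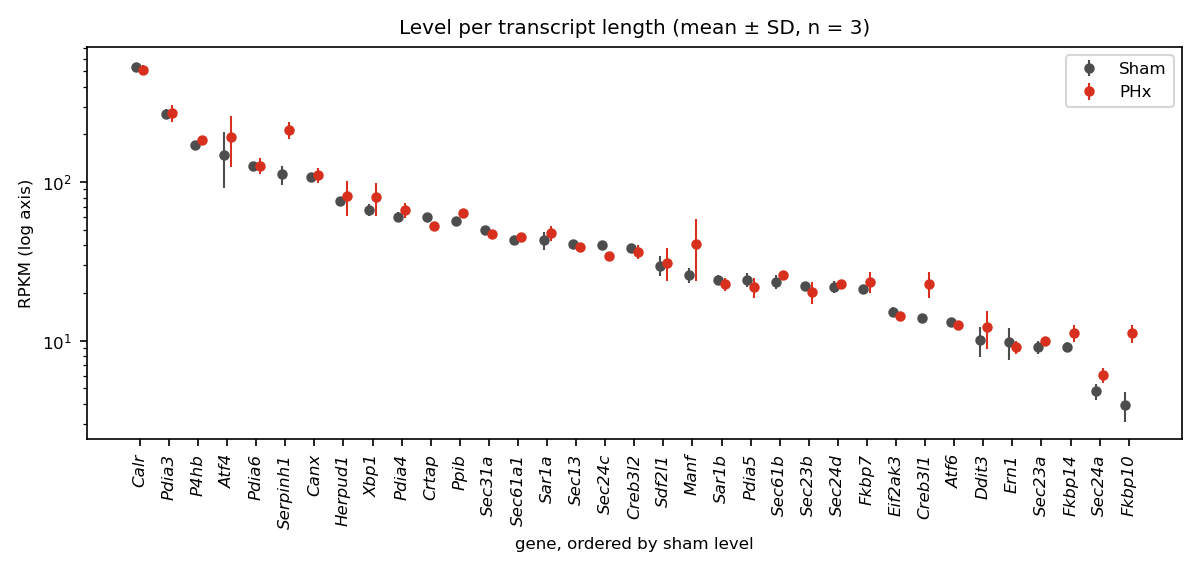
Mean RPKM ± SD (n = 3, log axis) of the 35 genes in sham (grey) and PHx (red), ordered by the sham level. Most pairs of points lie on each other, while Serpinh1, Creb3l1 and Fkbp10 stand higher in PHx; wide bars at Atf4 and Manf show the spread between libraries.

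Herpud1, Sdf2l1 and Manf are induced by ER stress and act in degradation, in chaperone cycles and as a secreted stress-protective factor. Herpud1 stood at 164, 181 and 169.95 CPM in sham and at 139, 168 and 237 CPM in PHx 1, 3 and 4. Sdf2l1 stood at 39.4, 31.2 and 29.7 CPM in sham and at 36.7, 25.5 and 39.7 CPM in PHx. Manf stood at 51.6, 58.7 and 63.1 CPM in sham and at 56.8, 79.1 and 134 CPM in PHx. PHx 4 was the highest library for all 3, and the groups overlapped for all 3.

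The log2 fold change of Manf was 0.64 ± 0.30 (SE, adjusted p = 0.443 in edgeR), and 0.23 without PHx 4, while Herpud1 was at 0.08 with all libraries and at -0.16 without PHx 4. Xbp1, Atf4, Ddit3, Herpud1, Sdf2l1 and Manf were each highest in PHx 4, Sdf2l1 by a small margin (39.7 against 39.4 CPM in Sham 1). Chaperone genes that ER stress can also induce were mixed. Calr, Canx and Pdia6 were lowest in PHx 4, at 923, 426 and 246 CPM. Outside the 35 members, Hsp90b1 was also lowest in PHx 4, at 960 CPM, while Hspa5 was highest there, at 1737 CPM. PHx 4 was the highest library for 13 of the 35 members and the lowest for 9. PHx 4 was also the library with the highest neutrophil markers (3800 CPM). The summed immediate early genes Fos, Fosb, Jun, Junb, Egr1 and Ier2 were highest there too (13571 CPM), with Sham 4 close, at 12602 CPM. Sham 1 and PHx 3 stood at 10834 and 10731.5 CPM, and Sham 3 and PHx 1 were the lowest, at 4010 and 4992 CPM. The part of neutrophils and immediate early genes in the levels of Xbp1, Atf4, Ddit3, Herpud1, Sdf2l1 and Manf was not tested.

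**Figure D4:**
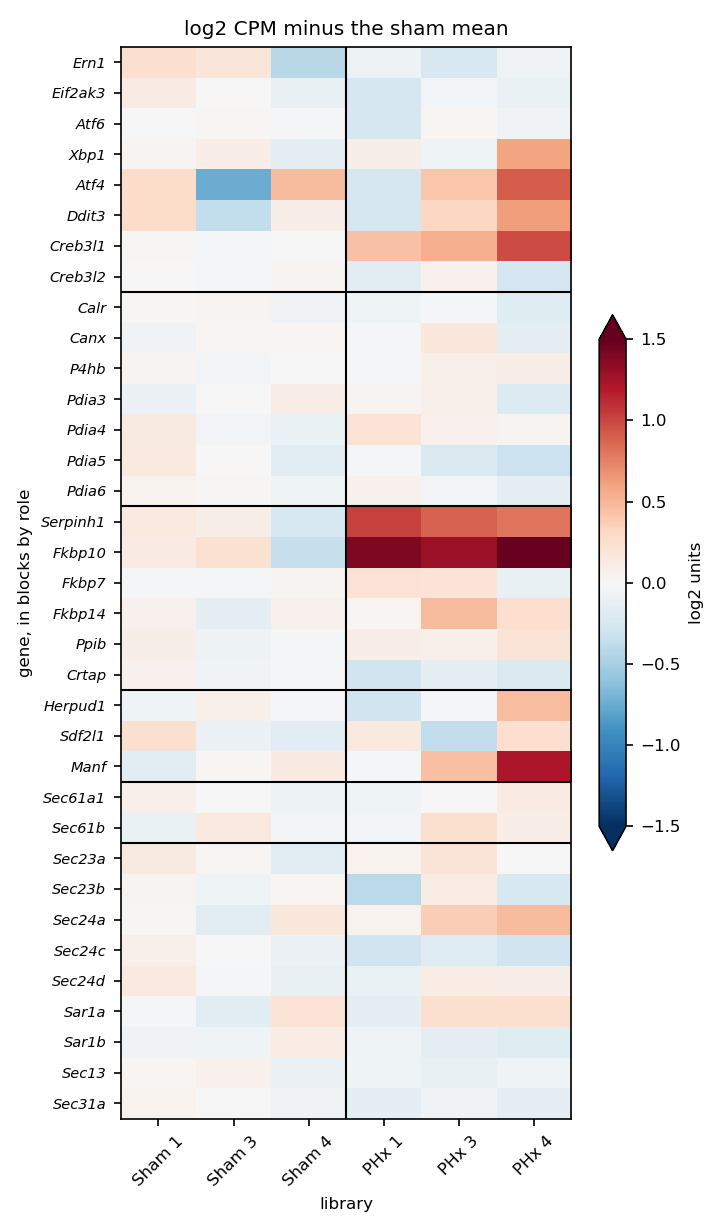
Log2 CPM of each gene in each library minus the mean of the sham libraries, with genes in blocks by role and the colour scale ending at ±1.5. Serpinh1, Fkbp10 and Creb3l1 are raised in all PHx columns, and Xbp1, Atf4, Ddit3, Herpud1 and Manf are strongest in the PHx 4 column.

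The translocon genes overlapped between the groups. Sec61a1, the pore-forming subunit, had a mean of 134 ± 7.39 CPM in the sham group and of 136 ± 8.74 CPM after PHx (SD, n = 3), and Sec61b, a small accessory subunit, at 13.2 ± 1.24 and 14.2 ± 1.40 CPM. Their log2 fold changes were 0.02 (95% interval -0.21 to 0.25) and 0.10 (-0.24 to 0.45).

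None of the 9 COPII genes was called by edgeR or DESeq2, which called 0.862% and 4.42% of all tested genes. Sec24c alone had p under 0.05 before adjustment, where 12.7% of all tested genes did. The groups overlapped for 8 of the 9 genes, and did not overlap for 20.5% of all tested genes. Log2 fold changes ran from -0.26 (Sec24c) to 0.31 (Sec24a), with a median of -0.09. The summed RPKM of the 9 genes was 256 ± 3.31 in sham and 250.4 ± 5.02 in PHx (SD, n = 3). That of the 6 collagen folding genes, of which Serpinh1 gave the largest part, was 263 ± 16.7 and 377 ± 29.0.

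Sar1 is the GTPase that starts coat assembly. Sar1a stood at 141, 128 and 166 CPM in sham and at 131, 169.6 and 169.9 CPM in PHx 1, 3 and 4, with Sham 4, PHx 3 and PHx 4 close together. Sar1b stood at 29.6, 29.4 and 33.3 CPM in sham and at 29.5, 27.8 and 27.0 CPM in PHx. Both overlapped between the groups. Sec23, the GTPase-activating protein of Sar1 in the inner coat, is encoded by Sec23a and Sec23b. Sec23a stood at 41.8, 38.3 and 34.0 CPM in sham and at 39.5, 43.3 and 38.0 CPM in PHx. Sec23b stood at 68.9, 64.3 and 68.5 CPM in sham and at 50.7, 72.4 and 57.1 CPM in PHx, where PHx 1 was the lowest. Their log2 fold changes were 0.08 and -0.16, each within an interval that includes 0.

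Sec24 proteins select cargo for the vesicle. Sec24c stood at 216, 206 and 193 CPM in sham and at 166, 179 and 166 CPM in PHx 1, 3 and 4, with all PHx libraries below sham, and its log2 fold change of -0.26 ± 0.10 (SE) was not called (adjusted p = 0.338 in edgeR). Sec24a stood at 37.4, 32.8 and 41.6 CPM in sham and at 38.6, 48.0 and 51.7 CPM in PHx, with overlapping groups and a log2 fold change of 0.31 ± 0.15 (SE, adjusted p = 0.433 in edgeR). Sec24d stood at 97.6, 86.0 and 81.1 CPM and at 81.8, 95.4 and 94.6 CPM, with a log2 fold change of 0.04. The outer coat genes Sec13 (53.4 ± 2.96 CPM in sham, 50.3 ± 1.01 CPM in PHx, SD, n = 3) and Sec31a (236 ± 8.79 and 218 ± 7.69 CPM) had log2 fold changes of -0.09 and -0.11, with intervals from -0.30 to 0.13 and from -0.34 to 0.11.

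Other genes of the pathway were read from lists. Over all tested genes edgeR called 0.862% and DESeq2 4.42% (0.641% lower), and 12.7% had an unadjusted p under 0.05 in edgeR. Of 28 further targets and helpers of the unfolded protein response none was called in either direction by edgeR, 3 had an unadjusted p under 0.05, DESeq2 called 1 lower, and the median log2 fold change was 0.04. The most abundant were Hsp90b1, the ER chaperone GRP94, at 0.04, and Hspa5, the chaperone BiP. Hspa5 stood at 829.5, 689 and 1036 CPM in sham and at 749, 1372 and 1737 CPM in PHx 1, 3 and 4, overlapping between the groups (0.59 ± 0.31 SE, adjusted p = 0.476 in edgeR). Trib3, a pseudokinase induced by ATF4 and CHOP and singled out after its values were seen, was the gene called by DESeq2, at 11.1, 12.4 and 13.6 CPM in sham and 5.06, 6.51 and 2.79 CPM in PHx (adjusted p = 0.112 in edgeR and 0.00121 in DESeq2). Of 16 genes of ER-associated degradation none was called by edgeR or DESeq2, 2 had an unadjusted p under 0.05, and the median was -0.05, with -0.04 for Vcp, the extracting ATPase, and -0.11 for Sel1l, the ligase adaptor.

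Of 29 genes for collagen modification and export, edgeR called Plod2 higher (3.45%, against 0.846% of all tested genes) and 28 were not called. The median log2 fold change was 0.03. Before adjustment 8 of the 29 had p under 0.05, each of them higher, against 12.7% of all tested genes in either direction. DESeq2 called 5 higher, against 3.78% of all tested genes, and none lower. Plod2 encodes the lysyl hydroxylase of collagen telopeptides, known as a partner of FKBP65. It stood at 8.16, 7.97 and 6.54 CPM in sham and at 28.8, 33.0 and 30.5 CPM in PHx 1, 3 and 4, with a log2 fold change of 2.03 ± 0.14 (SE, adjusted p = 0.00558 in edgeR). Of the same list 10 genes had all PHx libraries above sham and 1 below, where 10.6% of all tested genes lay above and 9.96% below. P3h1, named here as the partner of Crtap and Ppib and outside the naming rule, had a log2 fold change of 0.43 (adjusted p = 0.203 in edgeR). P3h2, P3h3 and P3h4 of the same list, also outside the rule, were at -0.20, 0.92 and 1.05 (adjusted p = 0.620, 0.0513 and 0.0641 in edgeR). DESeq2 called P3h3 and P3h4 higher (adjusted p = 0.000112 and 8.56e-05), so the list median does not describe every gene on it.

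Of 13 KDEL receptors and cargo receptors none was called by edgeR, 2 had p under 0.05 before adjustment, and DESeq2 called 1 higher. The shares of all tested genes were 0.862% and 12.7% (either direction) and 3.78%. The median log2 fold change was -0.05, with -0.09 for Tmed10 and -0.25 for Lman2. The gene called by DESeq2 was Kdelr3, a receptor that returns ER proteins from the Golgi, singled out after its values were seen, with 3.47, 2.61 and 2.64 CPM in sham and 6.20, 8.11 and 9.37 CPM in PHx (adjusted p = 0.0574 in edgeR and 1.53e-05 in DESeq2).

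The last list holds collagen chains, the cargo of the collagen folding genes. It holds a part of the collagen chain genes, chosen with earlier results of these data known, so its shares do not describe all of them. Of 17 collagen chain genes 7 were called higher by edgeR (41.2%, against 0.846% of all tested genes), none lower, and the median log2 fold change was 1.78, with 2.51 for Col3a1, 2.16 for Col5a1, 1.78 for Col6a1 and 1.51 for Col16a1. Before adjustment 16 of the 17 had p under 0.05, each of them higher, DESeq2 called 15 higher, and 15 had every PHx library above sham. Over all tested genes these shares were 12.7% (either direction), 3.78% and 10.6%. The summed RPKM of the 17 chains was 638 ± 28.4 in sham and 1529.5 ± 166 in PHx (SD, n = 3), a ratio of means of 2.40. Col4a1 (means of 247 RPKM in sham and 346 in PHx) and Col4a2 (197 and 285) gave the largest parts of this sum. Their log2 fold changes were 0.45 and 0.50, well under the median, so the sum mostly follows these chains of smaller change in sham. For each unit of Serpinh1 RPKM there were 5.40, 5.45 and 6.43 units of the 17 chains in the sham libraries, against 5.91, 8.42 and 7.29 after PHx, so this ratio overlapped between the groups. For the fibrillar chains Col1a1, Col1a2 and Col3a1 alone it was 0.564, 0.666 and 0.984 in sham and 1.93, 3.55 and 2.34 in PHx, without overlap. These chains are also stellate and fibroblast markers, and the ratios were chosen after the values were seen.

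**Figure D5:**
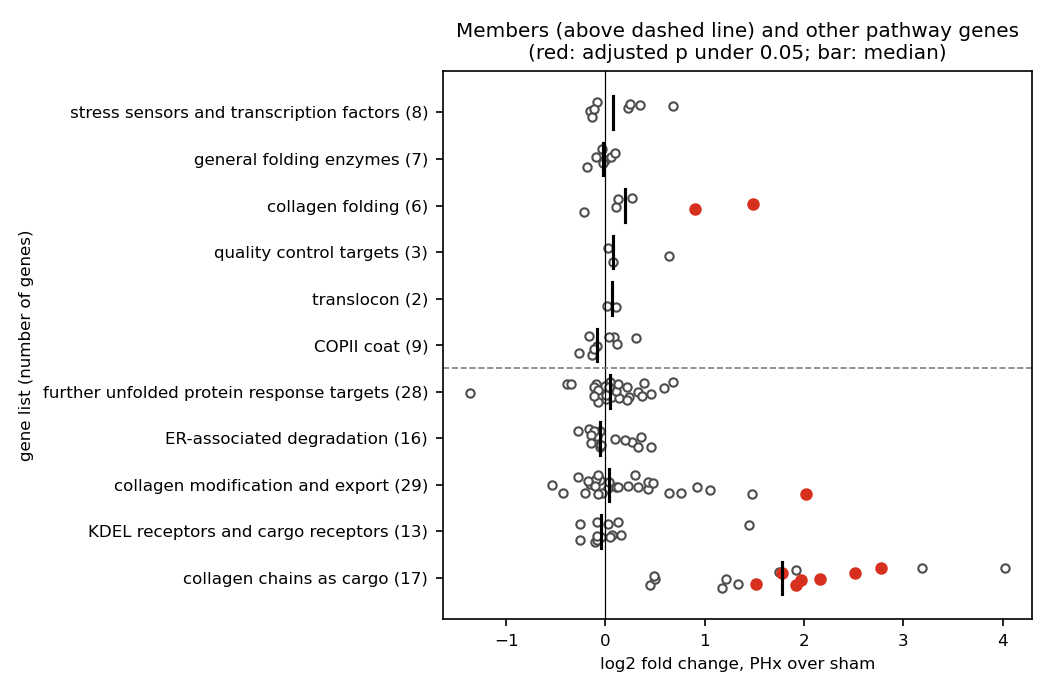
Log2 fold change, PHx over sham, of the members by role (above the dashed line) and of the other pathway lists (below), with called genes in red and the list median as a bar. The red points are 2 collagen folding genes, Plod2 and 7 collagen chains, while the medians of the 4 pathway lists other than collagen chains lie between -0.05 and 0.04.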

How the data were processed

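Per the labels' protocols, RNA was extracted with Trizol and sequenced as read pairs. Alignment with TopHat2 2.0.13 to mm10 (GRCm38) after bcl2fastq is recorded per the submitters' processing notes, without roles. The sources used here give no counting program, annotation or strand setting. The authors deposited a raw count per gene and library, and RPKM, which equalled the count divided by the deposited gene length in base pairs (another value of the table) and by the summed counts in 100% of cells, within a relative tolerance of 1e-06. 27 names turned into dates were restored from Entrez numbers. 99.8% of 39064 positions overlapped those in RefSeq GRCm38.p6. No row was without a name. A chi-square per degree of freedom of at least 49.9 between any 2 libraries showed no copies.

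The test was run in edgeR 4.0.16 under R 4.3.3: filterByExpr, TMM scaling, robust quasi-likelihood F-test with group as the only term, and Benjamini-Hochberg adjustment over 19033 genes. SE is the absolute log2 fold change over the square root of F, and 95% intervals use it with the fit's degrees of freedom. RPKM, which is not TMM-scaled, served for the order of genes, sums and ratios, described within and between groups with no test. DESeq2 1.42.0 and limma-voom (limma 3.58.1) were alternatives. Members and lists were chosen with earlier results of these data known. Named were all members, up to 4 called genes of each pathway list or else its 2 most abundant, and exceptions stated as such. Protein sequences were not used here.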

Additional observations from a re-analysis of the deposited data

How the results depend on the processing

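In all 14 alternatives 26 of the 35 members kept the direction of their log2 fold change, and Serpinh1 and Fkbp10 kept an unadjusted p under 0.05. Members called higher numbered 2, and 3 without a filter, 3 with DESeq2, 1 with limma-voom, 0 with the replicate block, 0 without Sham 4 and PHx 4, and 0 to 2 when each library was left out; none was called lower. Before adjustment 4 members had p under 0.05, 5 with the block, 3 to 6 when each library was left out and 5 without Sham 4 and PHx 4. Serpinh1 was not called with limma-voom (0.90, adjusted p = 0.0515), the replicate block (0.91, adjusted p = 0.102) or without Sham 4 and PHx 4 (0.83, adjusted p = 0.130), and Fkbp10 not with the block (1.49, adjusted p = 0.130) or without Sham 4 and PHx 4 (1.20, adjusted p = 0.0785). Leaving out each library gave 0.75 to 0.95 for Serpinh1 and 1.28 to 1.57 for Fkbp10. Creb3l1 was called without a filter (0.65, adjusted p = 0.0402) and by DESeq2 (0.68). Over all genes 161 were called higher and 3 lower. The counts were 359 and 30 without a filter, 719 and 122 with DESeq2, 94 and 1 with limma-voom, 14 and 1 with the block, 24 and 1 without Sham 4 and PHx 4, and 0 to 160 and 0 to 9 when each library was left out. In the order Sham 1, Sham 3, PHx 1, PHx 3 and PHx 4, each left out alone, 34, 6, 58, 82 and 160 were higher and 2, 1, 4, 9 and 6 lower. Without Sham 4 edgeR called no gene, with 2241 at p under 0.05 before adjustment. The cause was not tested, beyond fewer samples in the fits that left out libraries.

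Deviations from the group means correlated at -0.0897, -0.229 and 0.0269 between libraries sharing the number 1, 3 and 4, and none had its best match at its own number, so the numbers were not taken as pairs. Members that were not called changed sign as follows. Without Sham 4 and PHx 4 the values were -0.059 for Xbp1, 0.076 for Canx, 0.10 for Pdia3, -0.17 for Herpud1, -0.19 for Sdf2l1, -0.076 for Sec61a1 and -0.054 for Sec24d. With at least 5 CPM in 3 libraries they were 0.041 for Canx, 0.017 for Pdia3 and 0.0046 for Pdia6. With upper-quartile factors they were -0.015 for Sdf2l1 and -0.015 for Sec61a1, and without a filter -0.0085 and -0.0099. Leaving out each library gave -0.095 to 0.066 for Canx, -0.090 to 0.058 for Pdia3, -0.11 to 0.015 for Pdia6, -0.16 to 0.23 for Herpud1, -0.10 to 0.18 for Sdf2l1, -0.058 to 0.052 for Sec61a1, -0.030 to 0.13 for Sec23a and -0.056 to 0.099 for Sec24d.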
